A study of Mus musculus with 36 samples.

Results

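The chromosome 2 cluster of olfactory receptor genes was examined across 36 RNA-seq libraries from the mouse nose and olfactory bulb. Members were all genes whose symbol is Olfr followed by digits alone and whose locus lies between 85 and 91 Mb of chromosome 2 in the mm9 build. This gave 222 genes of the 1106 genes named in that way, or 20.1% of them, at 223 loci. Levels are given in FPKM, fragments scaled to transcript length and library size, summed over a gene's loci. The first member was Olfr987, at chr2:85171124-85172053, and the last was Olfr1274, at chr2:90240797-90241831. Olfr1506 had values in 12 of the 36 libraries only, since its entry was used only from the tables of the main olfactory epithelium, so 221 members were followed in the other tissues.

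The libraries came from the main olfactory epithelium (MOE), the vomeronasal organ (VNO) and the olfactory bulb (OB) of C57BL/6 mice aged 6 months. All mice lived 4 to a cage from weaning, either with their own sex alone (sex-separated females, SF, and males, SM) or as 2 females and 2 males (sex-combined females, CF, and males, CM). Each of the 12 groups of tissue, sex and housing had 3 libraries, each made from the pooled RNA of several mice, so the spread between libraries is that between pools. The labels give no mutation or drug treatment, and name tissue, sex and cage mates as the differences between groups. Per the methods, sex-separated cages also stood in rooms that held that sex alone. Pups were born in the sex-combined cages and were killed soon after birth. Effects of cage mates therefore cannot be told apart from those of room and breeding.

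Olfactory receptors are G protein-coupled receptors that bind odorants on the cilia of olfactory sensory neurons in the MOE. Each mature neuron transcribes a single receptor allele out of the whole repertoire, and its receptor signals through the G protein Gnal, the adenylyl cyclase Adcy3 and the cyclic nucleotide-gated channel with the subunit Cnga2. The level of a receptor gene in whole MOE RNA therefore depends on how many neurons chose it and on how much RNA each of them holds, and in bulk tissue fewer cells of a type and less RNA per cell cannot be told apart. Axons of these neurons run to glomeruli of the OB, and the VNO has its own sensory neurons, which use the channel Trpc2 and other receptor families. The chromosome 2 genes belong to class II, the receptors typical of land vertebrates.

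Of the 12 members with the most RNA in the MOE, 3 are close relatives from the same stretch of the cluster. Olfr1228 and Olfr1226, the highest and second highest in the MOE, and Olfr1229, the seventh, lie near each other on the minus strand, and the stretch of their coding sequences around the MAYDRY motif, a hallmark of odorant receptors that lies at the end of a transmembrane segment, is given here. The sequences are from GENCODE M21 on the GRCm38 build, all on the minus strand and 5′ to 3′, at chr2:89249234-89249353 for Olfr1228, chr2:89193610-89193729 for Olfr1226 and chr2:89282709-89282828 for Olfr1229. Capitals mark the codons of the motif in the Olfr1228 line and, in the other lines, bases that differ from Olfr1228.
Olfr1228: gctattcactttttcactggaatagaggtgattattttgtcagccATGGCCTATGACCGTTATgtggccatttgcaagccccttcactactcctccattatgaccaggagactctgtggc
Olfr1226: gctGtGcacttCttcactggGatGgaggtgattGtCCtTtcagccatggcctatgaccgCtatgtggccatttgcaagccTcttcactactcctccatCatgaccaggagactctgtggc
Olfr1229: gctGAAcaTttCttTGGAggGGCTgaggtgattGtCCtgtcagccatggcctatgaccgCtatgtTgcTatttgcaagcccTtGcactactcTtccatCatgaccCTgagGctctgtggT
Over these 120 bases Olfr1226 differed from Olfr1228 at 12 positions and Olfr1229 at 27. Over the whole protein, translated from the coding sequence, Olfr1226 and Olfr1228 were 87.7% identical, while all pairs of the 217 members with an intact coding sequence had a median identity of 44.0% and a range of 29.0% to 98.4%. The encoded proteins were 301 to 346 residues long, with a median of 312, and 129 of the 217 carried the MAYDRY motif without any change.

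Nearly all members were detected in the MOE, at levels spread over a wide range. Averaged over the 12 MOE libraries, the median member stood at 0.956 FPKM, with quartiles of 0.379 and 1.90 FPKM and a highest mean of 15.4 FPKM. A mean of at least 1 FPKM was found for 108 members, at least 5 FPKM for 11 and at least 0.1 FPKM for 190, and 170 were above 0 in all 12 libraries. Of the 883 other Olfr genes with MOE values, 32.7% had a mean of at least 1 FPKM, against 48.6% of the members, and their median was 0.576 FPKM. Olfr1008, Olfr1053, Olfr1141, Olfr1248, Olfr1506 and Olfr1565 were listed at 0 in every MOE library. The sum was uneven among members: the 31 highest gave 50% of the summed member FPKM, the 119 highest gave 90%, and the 10 highest gave 26.7%.

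**Figure D1:**
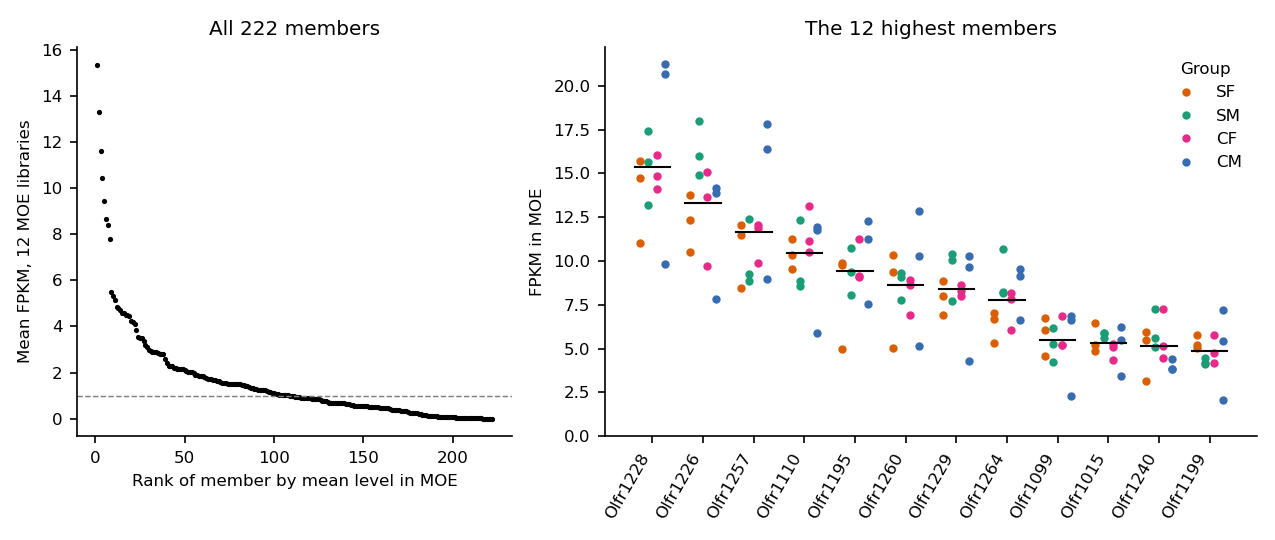
Left, mean FPKM over 12 MOE libraries of all 222 members, ordered from highest to lowest, with a dashed line at 1 FPKM, which 108 members reach. Right, FPKM of the 12 highest members in each MOE library, coloured by group, with a bar at the mean of the 12 libraries; the libraries of the 4 groups lie among each other for Olfr1228, which ranged from 9.85 to 21.2 FPKM.

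Olfr1228, at chr2:89088878-89089849 in mm9, was the member with the most RNA in 11 of the 12 MOE libraries, and Olfr1226 (chr2:89033257-89034189) was in the other. Across the 12 libraries Olfr1228 had a lowest value of 9.85, a median of 15.2 and a highest value of 21.2 FPKM, or 15.4 ± 3.36 FPKM (SD, n = 12), and it made up 3.57% to 5.03% of the member sum. Olfr1226 had 7.83, 13.8 and 18.0 FPKM at the same points. Both were lowest in the third CM library, and the ranges of Olfr1228 in the 4 groups overlapped. Olfr1257 (chr2:89720985-89721914) followed with 8.44, 11.7 and 17.8 FPKM and Olfr1110 (chr2:86975538-86976476) with 5.91, 10.8 and 13.1 FPKM. Below them Olfr1195 had a mean of 9.46 ± 1.96, Olfr1260 8.65 ± 2.21, Olfr1229 8.42 ± 1.70 and Olfr1264 7.79 ± 1.54 FPKM (SD, n = 12). The ninth to the twelfth, Olfr1099, Olfr1015, Olfr1240 and Olfr1199, lay between 4.86 and 5.51 FPKM on average, and of all steps in this order only that from Olfr1264 to Olfr1099 exceeded the SD between libraries of the higher member. Olfr1090, in the middle of the order, had 0.414, 0.994 and 1.60 FPKM at its lowest, median and highest library.

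This order was much the same in every library. Between 9 and 11 of the 12 members with the highest means were also among the 12 highest of any given MOE library, and Spearman correlations of member levels between the 66 pairs of MOE libraries lay between 0.884 and 0.944, with a median of 0.925. The libraries share each gene's length and sequence, so these correlations are a description.

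The number of fragments set how precisely a member could be measured. Fragments behind an FPKM value were estimated from the 95% limits given with it. A MOE library had 2301 to 4696 estimated fragments on the members together, and for a typical member 1 fragment was worth 0.0933 FPKM and 3 fragments 0.280 FPKM. Olfr1228 rested on 98.5 to 216 fragments per library, while Olfr1090 rested on 4 to 18.9. For the 108 members with a mean of at least 1 FPKM, the coefficient of variation over the 12 MOE libraries had a median of 27.6%, which became 23.1% when each library was scaled to its member sum. Counting error alone gives a median of 22.6% for these members. For the 11 members of at least 5 FPKM the same values were 21.2%, 15.2% and 11.1%. Among these, Olfr1015 (15.8%), Olfr1110 (19.0%) and Olfr1264 (19.8%) varied least between libraries, and Olfr1260 (25.5%), Olfr1257 (25.4%) and Olfr1240 (25.2%) most. Scaling to the member sum brought Olfr1260 down to 12.9% and left Olfr1240 at 25.4%.

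Levels differed along the cluster. The distal part, between 89 and 90 Mb, held 41 members with a median of 2.11 FPKM in the MOE, 7 of the 12 highest members and 37.7% of the member sum. The 41 members between 88 and 89 Mb had a median of 1.25 FPKM and 20.7% of the sum. The 3 megabases from 85 to 88 Mb had medians of 0.661, 0.850 and 0.674 FPKM and gave 11.5%, 18.0% and 11.2% of the sum, and the 6 members beyond 90 Mb gave 0.845%. Level was nevertheless a weak guide to that of the next gene, as the Spearman correlation between the 221 pairs of neighbours was 0.161. Members on the plus strand (73) had a median of 1.25 FPKM and those on the minus strand (144) of 0.922 FPKM. The only gap over 100 kb between members, of 140058 bases, lay between Olfr995 (mean 0.249 FPKM) and Olfr996 (0.366 FPKM), with 6 members before it. These positional differences were not tested.

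**Figure D2:**
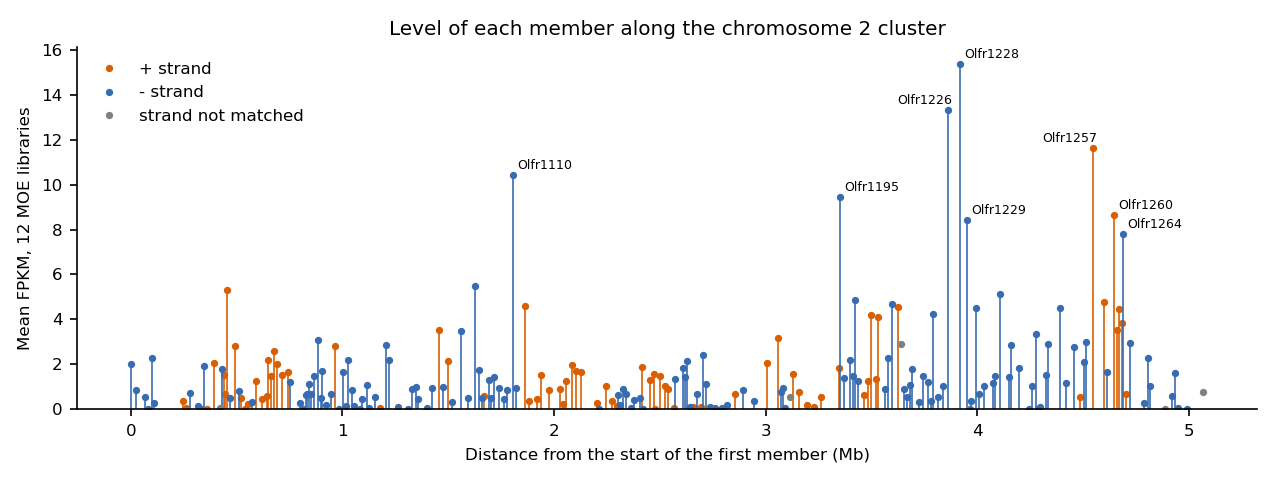
Mean FPKM over 12 MOE libraries of each member (vertical lines with points) against its distance in Mb from the start of the first member, coloured by coding strand. The tallest lines, of Olfr1228, Olfr1226 and Olfr1257 (15.4, 13.3 and 11.6 FPKM), stand in the distal part, while Olfr1110 (10.4 FPKM) stands apart near the middle.

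A few sequence families gave much of the member sum. RefSeq gives MOR family numbers as synonyms for 219 members, and 51 different numbers were read from them. Olfr1220 (read as 2335), Olfr1246 (2319), Olfr1248 (23110) and Olfr1245 (23112) were each set apart by a longer number. By protein identity the closest members were Olfr1221 of family 233 for Olfr1220 (83.9%) and Olfr1250 of family 231 for Olfr1248 (95.1%). The number of families may therefore be too high, and families 233 and 231 may lack members. Family 233, with 17 members that include Olfr1226, Olfr1228 and Olfr1229, gave 18.4% of the member sum, and 12 of its members had at least 1 FPKM. Family 232, with Olfr1257, Olfr1260, Olfr1258 and Olfr48 among 8 members, gave 9.16%, family 231 (14 members) 8.05% and family 230, with Olfr1195 and Olfr1199 among 8 members, 7.60%. Levels still ranged widely within a family, from 0.313 to 15.4 FPKM in family 233 and from 0.165 to 9.46 FPKM in family 230.

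Some members are so alike that short reads cannot be assigned to them with certainty. The pairs with the most similar proteins were Olfr1049 and Olfr1051 (98.4% identical), Olfr1129 and Olfr1130 (98.1%) and Olfr1057 and Olfr1062 (97.8%). Olfr1049 had a mean of 0.202 ± 0.164 and Olfr1051 of 0.676 ± 0.353 FPKM in the MOE (SD, n = 12). The 120 bases around the MAYDRY motif, in capitals, were identical in this pair (GRCm38, minus strand, chr2:86255266-86255385 for Olfr1049 and chr2:86276060-86276179 for Olfr1051).
Olfr1049 and Olfr1051: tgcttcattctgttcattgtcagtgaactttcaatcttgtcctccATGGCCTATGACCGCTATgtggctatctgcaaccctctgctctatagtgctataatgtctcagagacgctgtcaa
Of the coding positions of Olfr1049, 49.7% began a 50-base word, the length of each sequenced end, that also occurs in another Olfr coding sequence. Such shared words were present in 135 members, exceeded 10% of positions in 94 and exceeded 50% in 7. The highest members were little affected, since the share was 2.83% for Olfr1228, 6.58% for Olfr1226, 6.31% for Olfr1110 and 0% for Olfr1257, Olfr1260 and Olfr1229. How reads with several matches were handled is not given in the sources used here, so the split between Olfr1049 and Olfr1051, and between other near copies, is uncertain. The loci in the deposited tables were also mostly coding sequence alone: the median locus was 945 bases long, and 179 of the 223 loci had a length divisible by 3.

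Upstream sequence could be examined for few members, because the start annotated by RefSeq is often the coding start itself. RefSeq (GRCm38.p6) gave a window of 250 bases before to 50 after a start for 185 members, 186 windows in all, of which 129 began at the coding start and 16, from 15 members, lay over 100 bases before it. In olfactory receptor promoters, sites for homeodomain factors such as Lhx2 (TAATTA and TAATNA) and for the Ebf factors (TCCCNNGGG) are typical. On either strand, TAATNA occurred in 14 of the 16 windows (87.5%), in 62.5% of 758 windows of other Olfr genes and in 26.5% of the 32851 windows of all genes. TAATTA, which is 1 of the forms of TAATNA, occurred in 37.5%, 17.2% and 5.29% of these windows, TCCCNNGGG in 18.8%, 2.77% and 6.56%, CCCNNGGG, which is part of it, in 18.8%, 3.30% and 13.7%, and TATAAA in 37.5%, 37.9% and 13.6%. The windows of other Olfr genes and of all genes were not limited by distance to the coding start, so the 16 windows are not matched to them. Over all 186 windows of members, TAATNA was found in 79.6%, TAATTA in 24.7%, TCCCNNGGG in 1.61%, CCCNNGGG in 2.15% and TATAAA in 54.8%.

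The 250 bases before the annotated start are shown for Olfr1110, the highest member with a start well ahead of its coding sequence (chr2:87140234-87140483, minus strand, 3914 bases before the coding start), and for Olfr32, the member with the most RNA in the OB (chr2:90142294-90142543, minus strand, 3156 bases before the coding start). Capitals mark a match to any of these 5 motifs on either strand, here to TAATNA in each.
Olfr1110: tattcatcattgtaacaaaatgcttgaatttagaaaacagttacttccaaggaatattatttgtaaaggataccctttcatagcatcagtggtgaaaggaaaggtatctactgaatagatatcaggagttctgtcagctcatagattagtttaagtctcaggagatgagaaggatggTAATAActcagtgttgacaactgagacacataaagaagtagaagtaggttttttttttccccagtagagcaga
Olfr32: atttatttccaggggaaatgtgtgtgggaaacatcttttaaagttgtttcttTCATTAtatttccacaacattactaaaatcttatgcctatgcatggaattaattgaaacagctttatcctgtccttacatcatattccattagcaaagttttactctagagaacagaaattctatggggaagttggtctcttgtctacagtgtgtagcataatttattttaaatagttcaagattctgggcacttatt
The matches are a description of the letters in these windows and were not tested for binding.

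The summed level of the members differed between MOE libraries of the same group more than between groups. The member sum was 420, 276 and 392 FPKM in the SF libraries, 380, 343 and 369 in SM, 340, 372 and 330 in CF, and 431, 422 and 230 in CM. The second SF and the third CM library were the lowest of the 12, and the ranges of all groups overlapped. Group means were 363 ± 76.3, 364 ± 18.7, 347 ± 22.0 and 361 ± 114 FPKM (SD, n = 3) in SF, SM, CF and CM.

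The other markers of mature olfactory sensory neurons were lowest in the same 2 libraries. Omp, a protein of mature olfactory neurons, stood at 758 FPKM in the second SF and 638 FPKM in the third CM library, against 905 to 1130 FPKM in the other 10. All 10 markers of the mature neuron list were measured, with none at 0 in any MOE library, and their geometric mean, after adding 0.5 FPKM, was 104 and 91.6 FPKM in these libraries against 130 to 154 in the rest. The sustentacular cell list was also lowest there (82.2 and 73.9, against 98.0 to 119). The nasal gland list was highest in the second SF library (2477, against 888 to 1753 in the other 11), and the ciliated respiratory cell list was lowest in the third CM library (9.61, against 14.2 to 17.4). The third CM library also had the fewest estimated fragments over all genes, 3015000, against 4096000 to 5866000 in the other 11. The second SF library had 5816000. Whether tissue composition, depth or library quality accounts for the low sums was not tested. Relative to Cnga2 the member sum varied less, at 161 to 179 FPKM per 100 FPKM of Cnga2 in all 12 libraries, with 161 in the second SF and 176 in the third CM library. The SF libraries had the 3 lowest ratios, 161 to 162, and the other groups lay between 163 and 179, a difference that was seen in the values and not tested. It was not seen relative to the geometric mean of the 10 neuron markers. Per 100 FPKM of that mean, the member sum was 254 to 275 in SF, 238 to 265 in SM, 248 to 255 in CF and 251 to 292 in CM. As a share of the summed FPKM of all Olfr genes the member sum moved less still, from 23.9% to 24.8%.

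**Figure D3:**
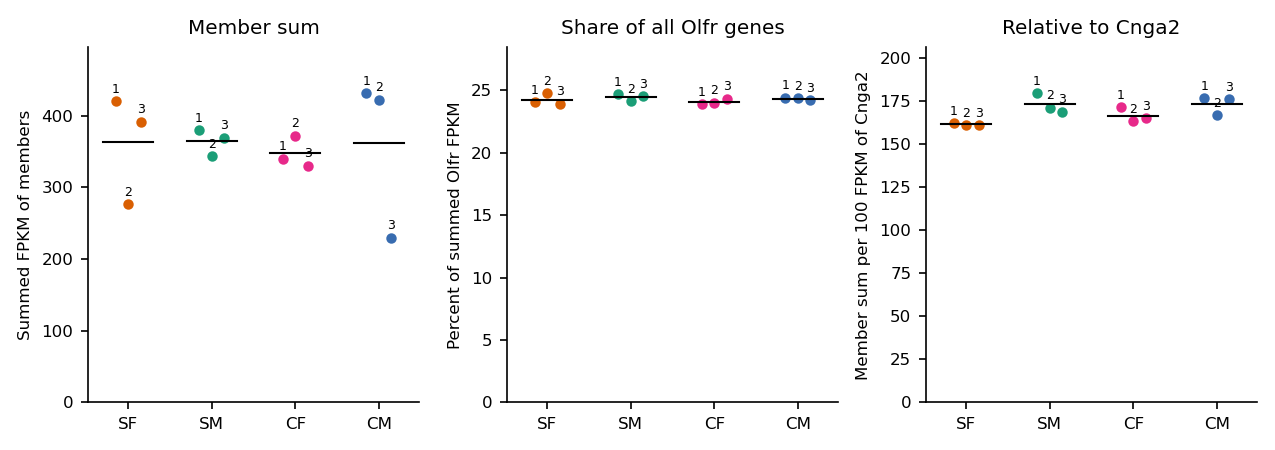
Summed FPKM of the members in each MOE library by group (left), the share of this sum in all Olfr genes in percent (middle) and the sum per 100 FPKM of Cnga2 (right), with replicate numbers above the points and bars at group means. The second SF and the third CM library stand low on the left (276 and 230 FPKM), while shares stay between 23.9% and 24.8%.

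The question whether members differ with sex or with cage mates was addressed by 5 contrasts in the MOE: females against males in each housing, the interaction of sex and housing (SF minus SM, less CF minus CM), and sex-combined against sex-separated within each sex. The fit (limma on log2(FPKM + 0.5), over all genes with a mean of at least 0.5 FPKM) tested 154 members. None was called at an adjusted p under 0.05 (limma, Benjamini-Hochberg over all genes tested) in any of the 5. Of all 13757 genes tested, 0.102% were called in SF minus SM, 0.0436% in CF minus CM, 0.0363% in the interaction, 0.0509% in CF minus SF and 0.0654% in CM minus SM. At an unadjusted p under 0.05 there were 9, 6, 10, 6 and 13 members in these contrasts, or 5.84%, 3.90%, 6.49%, 3.90% and 8.44% of those tested, against a background of 4.16%, 1.75%, 4.59%, 2.04% and 6.94% of all genes.

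With all 12 libraries the changes of members were centred near 0, but single libraries moved that centre. The median log2 change of the 154 members was 0.02 for SF minus SM, -0.02 for CF minus CM, -0.07 for CF minus SF and -0.05 for CM minus SM, where the medians over all genes tested were -0.02, 0.10, -0.06 and -0.17. Without the third CM library the median of members was -0.23 for CF minus CM, with 30 of 157 members above 0, and 0.19 for CM minus SM (all genes -0.10 and 0.02). Without the second SF library it was 0.16 for SF minus SM and -0.21 for CF minus SF (all genes 0.06 and -0.15). Without the third CM library, 24 of 157 members had an unadjusted p under 0.05 (limma) in CF minus CM and 19 of 157 in CM minus SM. The shares of all genes were 8.12% and 9.12%. Without the second SF library there were 22 members in SF minus SM and 21 in CF minus SF, against 2.60% and 2.01% of all genes. In each case the share was higher among members than among all genes, and 0 members passed the adjusted threshold. The libraries left out here were those with the lowest member sums, so leaving them out shifts members in a direction set by that choice. These shares are therefore a description only. The standard error of a member's change between 2 groups had a median of 0.24 on the log2 scale with all libraries. Among the 12 highest members, changes lay between -0.51 and 0.44 in the 4 contrasts of groups, with standard errors of 0.19 to 0.29. Olfr1228 had a log2 change of -0.16 (SE 0.25) for SF minus SM and of -0.12 (SE 0.25) for CF minus CM, with an adjusted p of 1 in both (limma).

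The largest change between groups among members was that of Olfr1000 (chr2:85448121-85449065). It stood at 0.201, 0.178 and 0.525 FPKM in SF, 0.866, 1.20 and 1.25 in SM, 0.807, 0.850 and 0.383 in CF, and 0.754, 1.10 and 0.304 in CM. All SF libraries were below all SM libraries, while the CF and CM ranges overlapped. The values rested on few estimated fragments, 1.99, 1.99 and 6 in SF and 9.59, 13 and 14.7 in SM. The log2 change for SF minus SM was -1.02 (SE 0.25, unadjusted p = 0.000872, adjusted p = 0.333, limma). In the interaction it was -1.0 (SE 0.36, adjusted p = 0.985). Its coding sequence shares 19.0% of its 50-base words with Olfr996.

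The next members of that contrast were Olfr1189 and Olfr48. Olfr1189 stood at 0.577, 0.304 and 0.196 FPKM in SF and at 0.755, 1.42 and 0.736 in SM (log2 change -0.77, SE 0.22, adjusted p = 0.605, limma). Olfr48 stood at 2.17, 1.62 and 3.31 FPKM in SF, 3.96, 5.81 and 4.01 in SM, 2.49, 4.10 and 1.47 in CF, and 3.04, 2.23 and 1.67 in CM. The SM libraries held 3 of its 4 highest values and did not overlap those of SF or CM. Olfr48 had a log2 change of -0.85 (SE 0.28, adjusted p = 0.851) for SF minus SM and of -0.87 (SE 0.28, adjusted p = 0.663) for CM minus SM in limma. Both contrasts share the SM libraries.

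Under the sex-combined condition the smallest p-values belonged to Olfr1234, Olfr1214 and Olfr1143. Olfr1234 stood at 0.332, 0.966 and 0.982 FPKM in CF and at 1.48, 1.73 and 1.12 in CM, without overlap, with a log2 change of -0.66 (SE 0.25, adjusted p = 1, limma). In SF it stood at 1.64, 0.817 and 0.898 FPKM and in SM at 1.03, 0.806 and 0.546, and its interaction was 0.96 (SE 0.35, adjusted p = 0.985). Olfr1214 (log2 change -0.78) and Olfr1143 (-0.48) had overlapping CF and CM ranges. Olfr1052, next to them in the interaction (log2 change 0.79, SE 0.29, adjusted p = 0.985), stood at 4.01, 2.85 and 3.26 FPKM in SF and at 1.91, 2.55 and 2.11 in SM, without overlap.

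Between housings of the same sex, Olfr1019 stood at 0.787, 0.473 and 0.486 FPKM in SF and at 0.971, 1.03 and 0.951 in CF, without overlap (log2 change for CF minus SF 0.47, SE 0.18, adjusted p = 1, limma). For Olfr1019 these values rested on only 7, 5 and 5 estimated fragments in SF and 9, 9.59 and 9 in CF. Olfr1233 (-0.55) and Olfr1223 (-0.50) followed in the same contrast with changes in the other direction. For males, Olfr1056 stood at 1.63, 1.5 and 1.93 FPKM in SM and at 3.73, 2.98 and 1.76 in CM, where the lowest CM library lay within the SM range (log2 change for CM minus SM 0.56, SE 0.22, adjusted p = 0.699, limma). Olfr1090 was second lowest in p among the members that were lower in CM (-0.54, SE 0.21, adjusted p = 0.699). None of these changes passed the threshold.

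**Figure D4:**
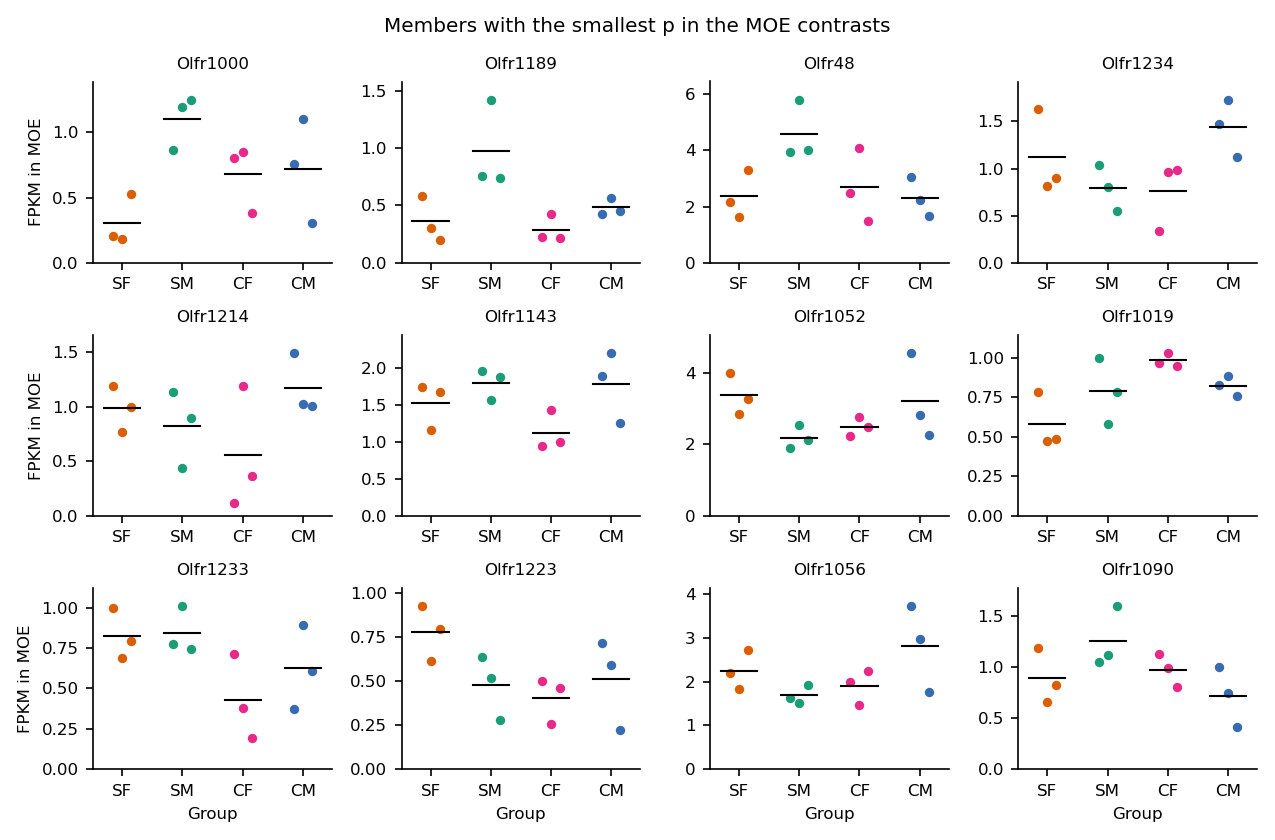
FPKM in each of 12 MOE libraries, by group, of the 12 members with the smallest p-values in the 5 MOE contrasts, with bars at group means and vertical axes that start at 0. Olfr1000 shows 3 SF points below 0.6 FPKM and 3 SM points above 0.8 FPKM; none of the 12 members passed the threshold after adjustment.

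Without the second SF and the third CM library, an alternative chosen after the data were seen, 0 of 157 members were called in 4 of the contrasts and 5 were called in the interaction, namely Olfr1032, Olfr1140, Olfr73, Olfr141 and Olfr1056. In that fit 2.02% of all genes tested were called in the interaction, 0.152% in SF minus SM, 0.0796% in CF minus CM, 0.0579% in CF minus SF and 0.116% in CM minus SM. The log2 interaction of Olfr141 was 1.40 (SE 0.28, adjusted p = 0.0492) without the libraries and 0.72 with all 12 (adjusted p = 0.999), and that of Olfr1032 was 1.15 against 0.40. Of the members tested, 43 then had an unadjusted p under 0.05 in the interaction, 42 of them with a positive value, which is 27.4% of the members tested beside 25.1% of all genes in the same fit. The median over members moved from 0.02 to 0.39, and that over all genes from -0.12 to 0.16. With all 12 libraries weighted by their own spread (arrayWeights), which gave these 2 libraries weights of 0.228 and 0.0503, 31 members were called in SF minus SM, 0 in CF minus CM, 34 in the interaction, 31 in CF minus SF and 2 in CM minus SM. The shares of all genes were 13.2%, 0.0872%, 17.6%, 16.2% and 0.378%. Olfr1000 was among those called in SF minus SM (log2 change -1.15) and Olfr1234 among those called in the interaction (1.51). The first SF library had the highest weight, 5.64, against 0.801 for the third, so the SF mean rested mostly on 1 library. The contrasts in which 31 or 34 members were called all use the SF libraries. The counts of called members thus depended on how the libraries were weighted, and differed between weighting them and leaving these 2 out.

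The rest of the olfactory transduction pathway gave no calls either. In a list of 30 genes for the receptor signal and for receptor choice, which holds Gnal, Adcy3, Cnga2, the receptor trafficking protein Rtp1 and the receptor enhancer factors Lhx2, Ldb1 and Ebf1 to Ebf4, all 30 were tested and 0 were called in each of the 5 MOE contrasts. Atf5, a stress-response factor of receptor choice, was the only gene of the list with an unadjusted p under 0.05, with a log2 change of -0.74 (SE 0.28, adjusted p = 1, limma) for SF minus SM and of -0.86 (adjusted p = 0.999) in the interaction. The median change of the list was -0.18 for SF minus SM, 0.11 for CF minus CM, -0.29 in the interaction, 0.06 for CF minus SF and -0.20 for CM minus SM. Cnga2 had a log2 change of 0.07 (SE 0.27) for SF minus SM and of 0.06 (SE 0.27) for CF minus CM.

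In the VNO the members were present as traces. Their sum was 0.735% of that in the MOE, where Cnga2 was at 1.02% and Omp, which vomeronasal neurons also make, at 10.3% of its MOE level. The vomeronasal markers Trpc2, Vmn2r1 and Vmn1r51 stood at 43.0 ± 4.85, 9.74 ± 0.866 and 3.69 ± 0.739 FPKM in the VNO (SD, n = 12) and at 0.938 ± 0.246, 0.0916 ± 0.0517 and 0.00214 ± 0.00741 in the MOE. The 6 genes of the vomeronasal list, which also holds the more widely expressed Gnai2, Gnao1 and Nsg1, had a geometric mean of 14.0 to 17.7 FPKM in the VNO and 3.83 to 4.89 in the MOE, but a summed level of 125 to 162 FPKM in the VNO and 194 to 349 in the MOE. Of the 221 members, 78 were listed at 0 in all 12 VNO libraries, 112 rested on 1 or 2 estimated fragments over all of them, and 3 had a mean of at least 0.1 FPKM. The VNO libraries had 20.0 to 66.8 estimated fragments on the members together, and 1 fragment was worth 0.0777 FPKM for a typical member.

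Olfr1033 had the highest VNO mean, with a lowest value of 0.183, a median of 0.325 and a highest value of 0.513 FPKM over 12 libraries. It was above 0 in all 12, with 8 to 25.8 fragments in each, and was the only member seen in every VNO library. Its locus spans 24169 bases (chr2:85860797-85884965) and its counted length is greater than that of other members, as 1 fragment was worth 0.0179 FPKM. Its VNO mean was 16.2% of its MOE mean, the highest ratio among members with at least 10 fragments in the VNO. Its coding sequence shares 28.2% of its 50-base words with Olfr1032.

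Olfr1264 was at 0 in the first CM library and between 0.156 and 0.676 FPKM in the other 11 VNO libraries, with a median of 0.324 and a total of 43.0 fragments. Olfr48 had a median of 0.0866 and a highest value of 0.554 FPKM, with 18 fragments over 8 libraries, and Olfr1258 a median of 0.0767 FPKM, with 14 fragments over 8 libraries. Olfr1034, next to Olfr1033 on the chromosome, had 18 fragments over 9 libraries and a VNO mean at 6.41% of its MOE mean. Level in the MOE did not carry over: Olfr1228, the highest there, had 0 fragments in the 12 VNO libraries, which allows up to 3, and the Spearman correlation of VNO with MOE means was 0.226 over 221 members.

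In the OB, where receptor RNA has been described in the axon endings of the sensory neurons, the members summed to 0.714% of their MOE level. Cnga2 was at 0.282% and Omp at 3.57% of the MOE level there. The bulb markers Tbx21, Eomes and Cdhr1 were at 4.79, 11.4 and 24.1 FPKM on average there. Of 221 members, 99 were listed at 0 in all 12 OB libraries, 86 rested on 1 or 2 fragments in all, and 4 had a mean of at least 0.1 FPKM. OB means followed MOE means more closely than VNO means did, with a Spearman correlation of 0.540, and the correlation between VNO and OB means was 0.285 (221 members each). The difference between these correlations was not tested.

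Olfr32 stood apart in the OB, with a lowest value of 0.183, a median of 0.463 and a highest value of 0.786 FPKM. It was above 0 in all 12 libraries, with 1.99 to 14 fragments in each and 102 in all, and its OB mean was 20.7% of its MOE mean (2.29 ± 0.814 FPKM, SD, n = 12). In the VNO it had 1 fragment in 1 of the 12 libraries. Its locus (chr2:89978337-89982450, 4114 bases) includes the start whose upstream bases are shown above. Olfr73 had a mean of 0.130, Olfr1222 of 0.113 and Olfr142 of 0.102 FPKM in the OB, each at 0 in 3 or 4 libraries and with 17, 18 and 14 fragments in all. The OB mean of Olfr142 was 16.8% and that of Olfr73 5.38% of the MOE mean. Olfr1033 was again above 0 in all 12 libraries, but at 0.0136 to 0.0834 FPKM.

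**Figure D5:**
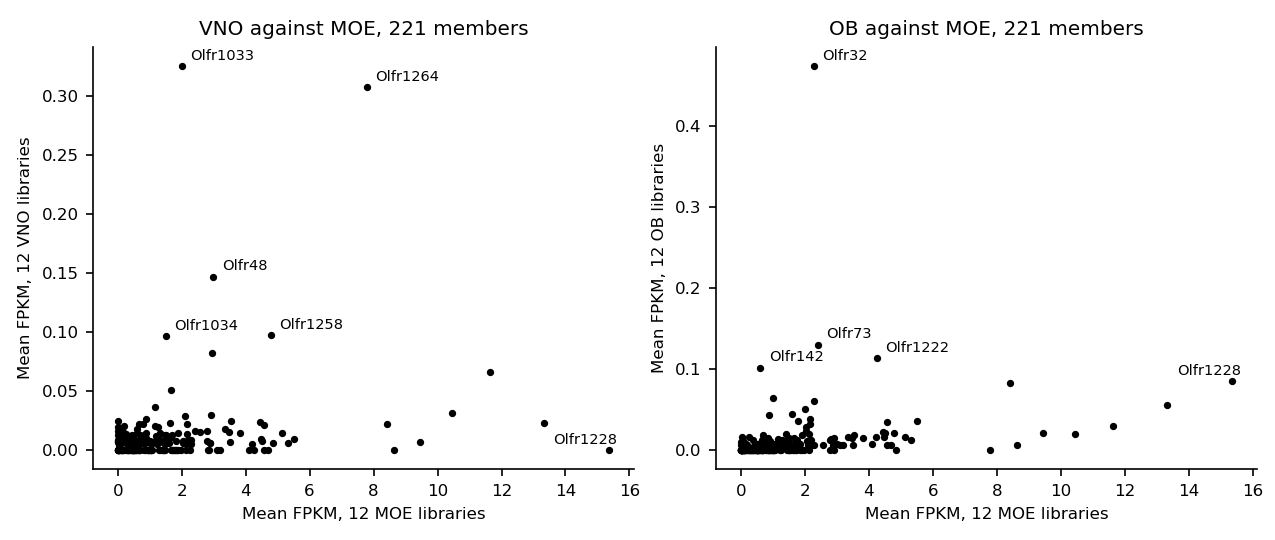
Mean FPKM over 12 VNO libraries (left) and 12 OB libraries (right) of 221 members against their mean over 12 MOE libraries, with linear axes on different scales. Olfr1033 and Olfr1264 stand above the rest in the VNO (0.325 and 0.307 FPKM) and Olfr32 in the OB (0.474 FPKM), while Olfr1228, highest in the MOE, is at 0 in the VNO.

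The fit over all 36 libraries tested 78 members, those with a mean of at least 0.5 FPKM over the 3 tissues. They pass that filter through the MOE, so that all 78 were higher in the MOE than in the VNO (48.6% of all 14627 genes tested were called higher) is fixed by the filter. Their log2 changes on the log2(FPKM + 0.5) scale ran from 1.59 for Olfr1033 to 4.96 for Olfr1228. The filter does not fix the direction of the difference between VNO and OB, where 7 of the 78 were called (limma, Benjamini-Hochberg over all genes tested), against 85.8% of all genes. No member had a mean of 0.5 FPKM in the VNO or OB, so with 0.5 FPKM added small differences can hardly be called. The shares of members and of all genes are therefore not comparable. Of the 7 members called, 3 were higher in the VNO and 4 lower, where 37.8% of all genes were called higher and 48.0% lower. Olfr1033 (log2 change 0.58, SE 0.081, adjusted p = 1.44e-07), Olfr1264 (0.65, SE 0.10, adjusted p = 6.6e-07) and Olfr48 (0.30, SE 0.13, adjusted p = 0.0344) were higher in the VNO. Olfr32 (-0.92, SE 0.12, adjusted p = 2.35e-08), Olfr1222 (-0.28), Olfr1228 (-0.22) and Olfr73 (-0.27) were higher in the OB, the last 3 with adjusted p-values of 0.0117, 0.0263 and 0.0275. With all libraries at 0 in the VNO for Olfr1222 and Olfr1228 and in the OB for Olfr1264, these fitted changes depend on the added 0.5 FPKM. The spread of each gene was estimated over all 36 libraries, so these p-values do not measure the spread within the VNO and OB alone. The calls of Olfr1222, Olfr1228, Olfr73 and Olfr48 were lost with 1 FPKM added, where 3 members were called, and without the libraries numbered 3, where 4 were. Olfr1033 lost its call with quantile normalization (log2 change 0.10, adjusted p = 0.0815).

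Sex and housing were compared in the VNO and OB as well, but no member reached the mean of 0.5 FPKM there. Without that filter 143 members in the VNO and 122 in the OB were tested, and 0 were called in any of the 6 contrasts (limma, Benjamini-Hochberg), nor in SF minus SM of the VNO with replicate numbers as a block, where 0.0574%, 0.0335% and 0.00478% of all genes were called for SF minus SM, CF minus CM and their interaction in the VNO and 0.0306%, 0.0357% and 0.00510% in the OB. At an unadjusted p under 0.05, these contrasts gave 11, 7 and 5 of 143 VNO members, beside 7.97%, 4.10% and 4.98% of all genes. In the OB they gave 5, 8 and 3 of 122 members, beside 4.97%, 5.52% and 4.36% of all genes. Of the members tested, 112 in the VNO and 86 in the OB rested on 1 or 2 estimated fragments over all libraries of the tissue. With 0.5 FPKM added such members can hardly be called, so the counts of 0 say little about them. The smallest p-values in the VNO were those of Olfr1018, Olfr142 and Olfr1251, and in the OB those of Olfr1217 (in SF minus SM and in the interaction) and Olfr1094. In the VNO, Olfr1018 had 1 estimated fragment in the first SM library, 1 in the second and none elsewhere. Olfr142 had 2 over all VNO libraries, so these p-values rest on very few fragments.

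The member sum in the VNO was 1.48, 2.09 and 2.77 FPKM in SF, 3.48, 4.68 and 2.90 in SM, 2.99, 2.88 and 3.06 in CF, and 0.726, 2.61 and 2.00 in CM. In FPKM all SM libraries lay above all SF and all CM libraries. In estimated fragments on the members the groups overlapped. The third SM library had 46.7 fragments, against 53.0 in the third SF and 53.0 in the second CM library. The geometric mean of the mature olfactory neuron markers was 7.06, 5.89 and 7.18 FPKM in SF, 10.5, 8.96 and 9.15 in SM, 10.7, 8.76 and 7.12 in CF, and 7.75, 9.49 and 7.84 in CM. It separated SM from SF, as the member sum in FPKM did, but not from CM, and its part in the member sums was not tested. In the OB the sums were 2.16, 2.16 and 2.92 FPKM in SF, 2.11, 2.69 and 2.55 in SM, 2.55, 3.01 and 2.52 in CF, and 1.94, 3.00 and 3.15 in CM. All 4 OB ranges overlapped.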

How the data were processed

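RNA of 36 tissue pools was depleted of ribosomal RNA and sequenced as pairs of 50-base ends with a stranded kit. Per the submitters' processing notes, the authors aligned reads to mm9 with TopHat2 2.1.0 and quantified them with Cufflinks 2.2.1.0; the deposited values are FPKM with 95% limits. Options are not given in the sources used here. The labels and the methods give different numbers of mice per pool.

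RefSeq accessions were named for 99.73% of entries through RefSeq and GENCODE M21 tables. Cufflinks limits were taken to lie 2 standard errors from FPKM, so fragments were (FPKM/SE) squared; 86.1% (MOE), 100% (VNO) and 99.3% (OB) of member values below 12 fragments came within 0.03 of a whole number. All genes of a library together had 3015000 to 6431000 estimated fragments. These cover counting error only.

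Contrasts used limma 3.58.1 in R 4.3.3 on log2(FPKM + 0.5), which understates changes of low genes, with lmFit, eBayes with trend and the Benjamini-Hochberg method over all genes with a mean of at least 0.5 FPKM; the test was run on simulated data first. Named members were those highest in each tissue, with the smallest p per contrast, the highest ratio to MOE, the most or least variable, first, last or beside the largest gap, and the 3 closest pairs. Olfr1032, Olfr1140, Olfr141 and the members listed at 0 were named after their values were seen. Members and lists were chosen with earlier results of these data known. Proteins were translated from GENCODE coding sequences and compared by global alignment (Biopython 1.88).

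Alternatives were other pseudocounts, no filter, quantile or neuron-marker scaling, arrayWeights, a replicate block and left-out libraries. Deviations of same-numbered libraries from their group means correlated by 0.127 to 0.202 in all 3 SF and SM pairs of the VNO, and numbers were taken as pairs for that contrast; the labels do not say what a number marks. In each other contrast at least 1 pair was at or under 0.1.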

Additional observations from a re-analysis of the deposited data

How the results depend on the processing

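Of 263 alternative values of 18 counts and shares, 249 were within 1.5 times the reported count or within the spread. Among the 249 are counts of 0 from VNO and OB contrasts of sex and housing where no member passed the filter. Those counts could not change, so 249 of 263 overstates how stable the results were. ArrayWeights gave the first SF library of the MOE a weight of 5.64, the second SF library 0.228 and the third CM library 0.0503. With these weights 31 members were called in SF minus SM (26 higher and 5 lower, beside 13.2% of all genes). There were 34 in the interaction, 31 in CF minus SF (3 higher, 28 lower), 2 in CM minus SM and 0 in CF minus CM. With the second SF and the third CM library left out, 5 were called in the interaction and 0 in the other contrasts. Leaving out any 1 MOE library called 0 members in each contrast, as did pseudocounts of 0.1 and 1 FPKM, no filter, quantile normalization, scaling to neuron markers and the 6 libraries of a contrast alone. In MOE minus VNO, 204 of 219 members were called without the filter (70.5% of all genes). In VNO minus OB, 17 members were called with a pseudocount of 0.1 FPKM, 3 with 1 FPKM, 13 with quantile normalization and 4 to 8 without a replicate number, where 85.9%, 85.7%, 87.3% and 81.8% to 84.6% of all genes were called. The cause of these differences was not tested. Members of at least 0.1 FPKM numbered 3 to 5 in the VNO and 2 to 4 in the OB without a replicate number, and 2 in the OB by the median.

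The replicate block changed no count by over 1.5 times. It called 0 members in each MOE contrast, 78 in MOE minus VNO and 8 in VNO minus OB (82.0% and 85.3% of all genes). For sex and housing within the VNO and within the OB no member passed the filter, so none could be called there with block and filter. In SF minus SM of the VNO, the only contrast whose 3 same-numbered pairs all deviated together, the block without the filter, an alternative added after the data were seen, called 0 of 143 members and left 11 at an unadjusted p under 0.05, as without it. Elsewhere the numbers were not taken as pairs. Of 367 alternative log2 changes of named members, none changed sign, 14 lost their call, all in VNO minus OB, and 7 gained one, all with arrayWeights. Quantile normalization moved the median log2 change of all genes in the MOE from 0.10 to -0.01 for CF minus CM and from -0.17 to 0.01 for CM minus SM. Depth limits the VNO and OB most, where a member rests on few fragments.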
